A study of Bubalus bubalis with 6 samples.

Results

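The core circRNAs of Jianghuai buffalo blood are those read in every animal. They were chosen by 1 rule, at least 1 read in each of the 6 libraries, and 4562 of the 57308 circRNAs in the deposited table met it (7.96%). The rule used the read counts of all animals alike and not their group, so the number, level and read share of these circRNAs are given as a description with no test.

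Blood of 3 pregnant buffaloes (P-Buffalo) and 3 non-pregnant buffaloes (C-Buffalo), aged 3 to 5 years, was drawn from the jugular vein on day 25, and each animal gave 1 library. All animals had their estrus synchronised. P-Buffalo were artificially inseminated and diagnosed as pregnant by ultrasound on day 60, whereas C-Buffalo received no semen, and the effects of insemination and of pregnancy cannot be told apart. Ribosomal RNA was removed and linear RNA was digested with the exonuclease RNase R before paired-end sequencing, and the libraries held 815851 to 1298753 circRNA reads.

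A circRNA forms when a splice donor is joined back to an acceptor upstream of it, so that 1 or more exons close into a ring. Long introns on both sides of the ring, and proteins that bridge them, favour this back-splicing. A ring has no free ends for exonucleases to attack, and circRNAs therefore persist and build up in long-lived and enucleated blood cells. Intronic circRNAs (ciRNAs) come from introns that were not fully taken apart after splicing.

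Few circRNAs held most of the reads. The core circRNAs held 77% of all reads, against 7.09% for the 2979 circRNAs read in 5 libraries and 4.33% for the 32367 read in a single library. Their share of a library's reads was 76.33%, 76.60% and 77.25% in P-Buffalo, against 79.24%, 76.32% and 76.56% in C-Buffalo. This share was almost the same in every animal, although the core made up between 17% and 37% of the circRNAs that a library detected.

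**Figure D1:**
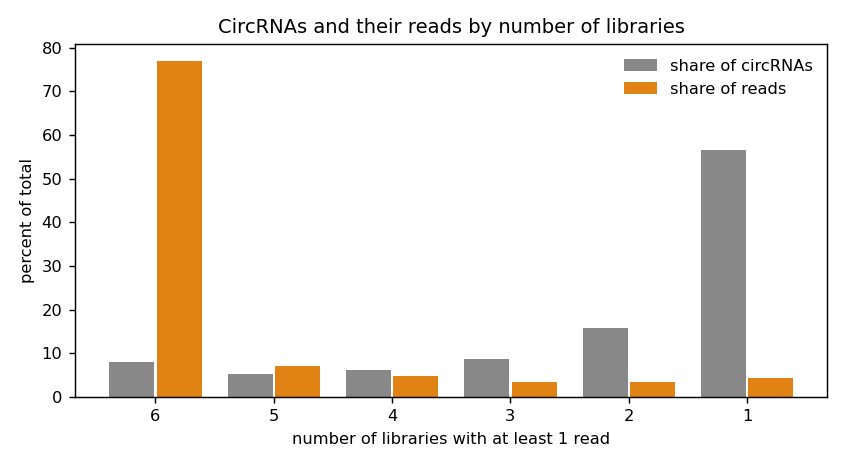
Share of the 57308 circRNAs (grey bars) and share of all reads (orange bars), in percent, by the number of libraries with at least 1 read. The core circRNAs, at 6 libraries, are 7.96% of circRNAs and 77% of reads, while circRNAs read in 1 library are 56.5% of circRNAs and 4.33% of reads.

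The typical core circRNA had fewer reads in C-Buffalo 2, although the core reads of this library (711224) exceeded those of P-Buffalo 3 (630268). The median core circRNA had 50, 63 and 43 reads in P-Buffalo 1 to 3, against 45, 12 and 59 reads in C-Buffalo 1 to 3. C-Buffalo 2 stood apart, with a lower quartile of 4 reads and an upper quartile of 153.75 reads. It detected 12336 circRNAs, where the other libraries detected 17446 to 26802, and its TMM factor, which scales a library for its composition, was 0.467 against 1.09 to 1.25 elsewhere. For 2683 core circRNAs (58.8%) the lowest count lay in C-Buffalo 2 alone. Of the 351 core circRNAs whose lowest count was 1 read, 283 had it there. When C-Buffalo 2 was left out, 5843 circRNAs were read in every other animal.

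**Figure D2:**
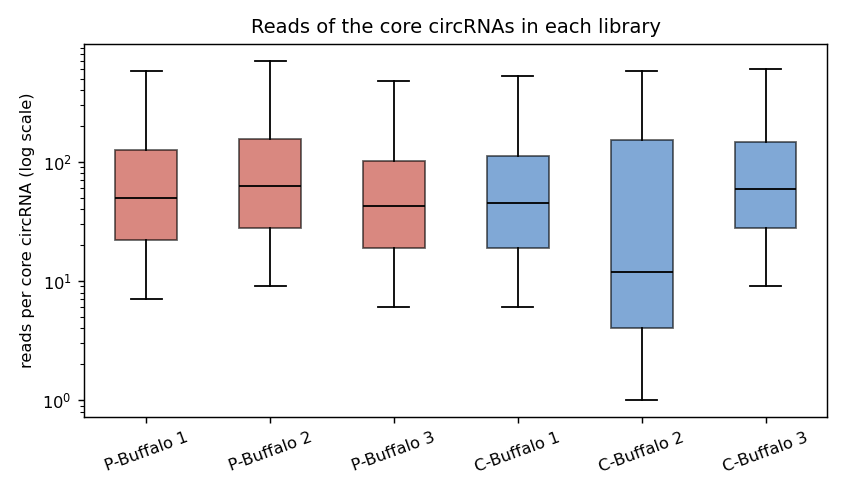
Reads per core circRNA in each library, on a log axis, for 3 P-Buffalo (red) and 3 C-Buffalo (blue). Boxes run between the quartiles with the median as a line, and whiskers reach the 5th and 95th percentiles. The medians are 50, 63 and 43 reads in P-Buffalo against 45, 12 and 59 reads in C-Buffalo, with the widest box in C-Buffalo 2.

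At the limit of the rule, the smallest member was circRNA11015 of LOC102391791, with 3, 1 and 4 reads in P-Buffalo against 1, 1 and 1 in C-Buffalo. The core circRNA of RASA2, a Ras GTPase-activating protein gene, had 2, 5 and 4 reads in P-Buffalo against 4, 1 and 2 in C-Buffalo. Just outside lay circRNAs with far more reads. The circRNA of the tyrosine kinase gene TEC, circRNA7129, had 1128, 1945 and 710 reads in P-Buffalo against 1500, 0 and 2095 in C-Buffalo. A second TEC circRNA with a start 1 bp away, circRNA19043, had 1415 reads in C-Buffalo 2 and 0 in all other animals. The circRNA of CENPC, a centromere protein gene, likewise had 0 reads in C-Buffalo 2 while a partner 1 bp away had 712 there.

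Rows whose ends lie within 1 bp of each other set part of the boundary. Whether such rows are 1 junction was not tested. A partner with both ends within 1 bp was listed for 16 core circRNAs (0.351%), against 19.5% of the circRNAs read in 5 libraries. In 572 of these 2979 circRNAs, the partner had reads in the library that lacked the circRNA. With partners summed, 5470 sites were read in every animal, and the 913 sites gained were made of 1832 circRNAs with 5.53% of all reads. In PHF21A, which encodes a chromatin protein, the split did not follow the groups. Its circRNA19414, annotated with 5 exons, had 2638, 2103 and 2902 reads in P-Buffalo against 0, 4916 and 0 in C-Buffalo. Its circRNA9183, annotated with 4 exons and a start 1 bp away, had 0, 0 and 0 against 1434, 0 and 3222. The INPP5F ciRNA ciRNA1835 had no such partner and was at 0 reads in P-Buffalo 1, against 702 and 179 in the other P-Buffalo and 493, 405 and 1026 in C-Buffalo.

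The core circRNAs were mostly small exonic rings between long introns. Of them 4153 (91.0%) were exonic, 311 (6.82%) intronic and 98 (2.15%) intergenic, where the other 52746 circRNAs were 81.4% exonic, 14.3% intronic and 4.28% intergenic. Rings of 2 or 3 exons made up 69.0% of the exonic core and 52.6% of the other exonic circRNAs. Rings of 6 or more exons made up 3.78% of the core and 14.8% of the others. The share of circRNAs that were core was highest at 2 exons (11.6%) and 3 exons (10.8%) and only 0.614% at 9 or more exons. The median genomic span from one end of the ring to the other was 4245 bp in the core against 5573 bp in the others. The shorter of the 2 flanking introns had a median length of 4040 bp in the core against 2392 bp in the others, and both flanks reached 1 kb in 88.2% against 77.1%.

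The shorter flank and the share of large rings stepped with the number of animals that shared a circRNA, and the span did so only in part. The median shorter flanking intron was 4040 bp at 6 libraries, 3582 at 5, 3402 at 4, 3098 at 3, 2696 at 2 and 2036 at 1. The share of rings with 6 or more exons ran 3.78%, 7.66%, 10.2%, 11.5%, 14.1% and 16.8% over the same steps. The median span was 4245, 5182, 5412, 5574 and 5875 bp from 6 to 2 libraries but 5563 bp at 1, and the share with both flanks of at least 1 kb was 88.2% at 6 libraries, 86.8% at 5 and 87.6% at 4. Within the core, level and structure were nearly unrelated, with a Spearman coefficient over circRNAs of −0.05 between mean level and span (n = 4153) and 0.08 between mean level and the shorter flank (n = 4056), as a description over circRNAs that share libraries.

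Structure was not used by the rule, so it was compared within each animal, weighting every circRNA by its reads and pairing core with all others. Exonic circRNAs gave 92.15%, 92.14% and 91.01% of core reads in P-Buffalo and 92.69%, 92.40% and 93.00% in C-Buffalo. They gave 84.52%, 80.89% and 83.20% of the other reads in P-Buffalo and 80.61%, 82.13% and 83.62% in C-Buffalo. Core and rest did not overlap, and the difference was 9.74 ± 1.81 percentage points (SD, n = 6 animals), higher in 6 of 6. The median span averaged 3862.5 bp in the core against 6090.8 bp in the rest, a difference of −2228 ± 557 bp (SD, n = 6), and the core was shorter in 6 of 6 animals. The median shorter flanking intron was 5297 bp in the core against 3536.5 bp in the rest, a difference of 1760.5 ± 285 bp, and the longer one was 12885 bp against 10290 bp, a difference of 2596 ± 1481 bp (SD, n = 6). Both flanks were longer in 6 of 6 animals.

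Each of these 4 differences had p = 0.03125 in a two-sided exact sign-flip permutation test over the 6 animals, the smallest it can give, and an adjusted p of 0.0469 over 6 features. The median exon number (2.33 in the core against 3 in the rest, exact p = 0.125, adjusted 0.15) and the share of exonic reads from single-exon rings (3.87% against 4.54%, exact p = 0.156) did not pass the test. The core is the same set of circRNAs with the same annotation in all animals, and the weights are the reads that the rule used. The 6 differences of a feature are therefore not independent, and a like sign in all animals is partly built in. The p cannot tell whether the structure would differ in another set of circRNAs, and the differences are best read as a description. Without any 1 animal the test cannot go below 0.0625.

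**Figure D3:**
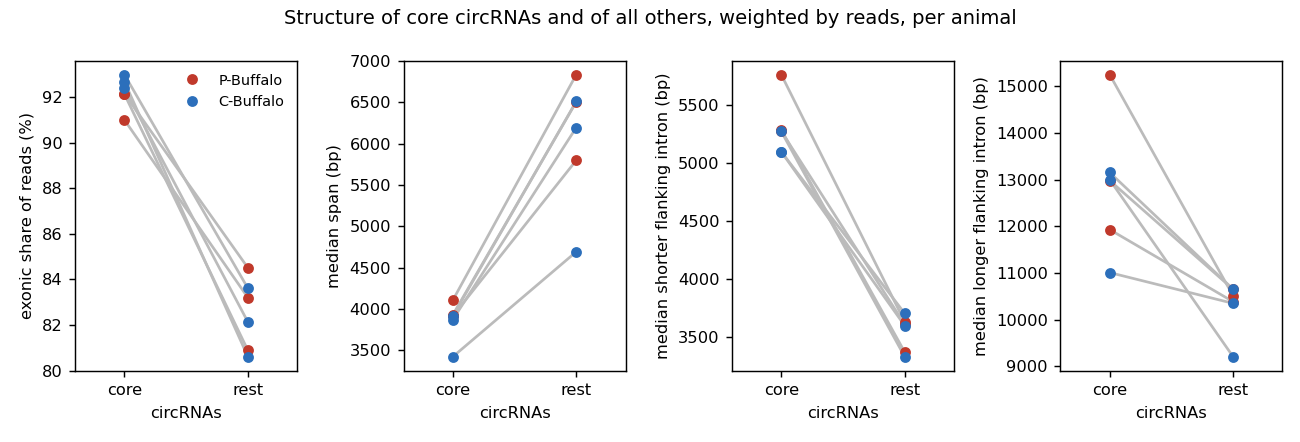
Read-weighted structure of core circRNAs (left in each panel) and all other circRNAs (right) in each animal, with P-Buffalo in red, C-Buffalo in blue and a line joining the values of 1 animal. The exonic share of reads is in percent and the span and flanking introns are medians in bp, on axes that do not start at 0. In 6 of 6 animals the core has the higher exonic share, the shorter span and the longer flanking introns.

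The structure of the core was not shown to differ between the groups. The exonic share of core reads was 91.8% ± 0.657 in P-Buffalo and 92.7% ± 0.299 in C-Buffalo (SD, n = 3 each), and the animals of the groups did not overlap. The exact permutation test gave p = 0.1, the smallest that 3 against 3 allows, and an adjusted p of 0.3. The median exon number (exact p = 1) and the longer flanking intron (exact p = 0.6) overlapped between the groups.

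The core reads were concentrated on few rings. The 10 highest core circRNAs of a library held 15.2% to 21.7% of its core reads, the 100 highest 38% to 44.8%, and 145 to 224 of them together held 50% of the core reads. Level is given below as reads and as CPM, counts per 1000000 reads scaled by TMM factors. The highest mean levels belonged to rings of the deubiquitinase gene USP3, the kinase gene VRK1, the transcription factor gene ELF1, the ubiquitin ligase gene UBE3A and the clathrin assembly gene PICALM. The USP3 ring took 96.7% and the UBE3A ring 98.9% of all circRNA reads of its host.

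The next ranks held short rings, each under the lower quartile of the exonic core span (1727 bp). PDE7A, which encodes a cAMP phosphodiesterase, gave circRNA5384 (52229366 to 52230251 on NC_037559.1, 2 exons), with 6062, 12165 and 7484 reads in P-Buffalo against 14761, 6193 and 7707 in C-Buffalo. SPC24, which encodes a subunit of the kinetochore complex NDC80, gave circRNA13630 (95702690 to 95703002 on NC_037553.1, 313 bp), with 3382, 6948 and 2663 reads in P-Buffalo against 13324, 10158 and 3326 in C-Buffalo. The groups of both overlapped. The ABHD18 ring circRNA9732 had 2597, 5863 and 4343 reads in P-Buffalo against 6718, 6687 and 2627 in C-Buffalo, which overlapped as well. Their log2 fold changes were −0.69 (SE 0.49) for PDE7A, −1.90 (SE 0.74) for SPC24 and −1.16 (SE 0.71) for ABHD18, and none passed the adjusted test. Without C-Buffalo 2 that of SPC24 was −1.12 and that of ABHD18 −0.23, and with library totals implied by SRPBM, the deposited scaled signal, they were −1.09 and −0.37.

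Among the highest 10 was 1 intronic circRNA. The MAPK14 ciRNA ciRNA1163, of 216 bp in the gene of the stress kinase p38 alpha (42403702 to 42403917 on NC_037546.1), had 7205, 11624 and 7878 reads in P-Buffalo against 4280, 3942 and 5177 in C-Buffalo. Its raw reads did not overlap between the groups. In CPM they did, at 7268 ± 1219 in P-Buffalo against 5594 ± 3007 in C-Buffalo (SD, n = 3 each), and its log2 fold change was 0.38 (SE 0.49), or 0.98 with SRPBM totals. It held 92.2% of the circRNA reads of its host.

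The next intronic circRNAs came from ZEB1, a zinc-finger transcription factor gene, and OGA, which encodes the enzyme that removes O-linked N-acetylglucosamine. The ZEB1 ciRNA ciRNA797 had 2240, 4050 and 3485 reads in P-Buffalo against 2786, 2594 and 4471 in C-Buffalo, and the OGA ciRNA ciRNA617 had 1346, 3953 and 1955 against 2550, 2397 and 1334. Both overlapped between the groups. The shortest core circRNAs were also intronic. Ends of 2 of them, ciRNA124 and ciRNA125 of SLC4A1, the gene of the red cell anion exchanger, lay 1 bp apart, at spans of 118 and 119 bp, and both were read in every animal. ciRNA125 had 32, 58 and 81 reads in P-Buffalo against 66, 5 and 64 in C-Buffalo, and ciRNA124 had 33, 54 and 82 against 46, 4 and 53.

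The most abundant intergenic member was circRNA14874, a ring of 532 bp from 69921592 to 69922123 on NC_037559.1. It had 12418, 1651 and 5584 reads in P-Buffalo against 1125, 2124 and 1580 in C-Buffalo, so P-Buffalo 1 and 3 were high and P-Buffalo 2 lay among C-Buffalo.

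Core circRNAs differed widely in steadiness. The median SD of log2 CPM over the 6 animals was 1.02, and the median core circRNA ranged 6.64-fold from its lowest to its highest animal. Without C-Buffalo 2, a comparison added after seeing the data, these were 0.74 and 3.54-fold. A range within 4-fold was found for 1097 core circRNAs (24.0%) over all animals and for 2622 (57.5%) without C-Buffalo 2. Between pairs of animals the log2 CPM of the core correlated at 0.623 to 0.664 in the 5 pairs with C-Buffalo 2 and at 0.689 to 0.830 in the 10 others, over 4562 circRNAs that are not independent replicates.

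Among core circRNAs with at least 50 reads in every library, the steadiest came from GLRX3, a glutaredoxin gene. Its circRNA5738 had 670, 928 and 609 reads in P-Buffalo against 662, 315 and 982 in C-Buffalo, with an SD of 0.15 on the log2 CPM scale. ZDHHC20, which encodes a palmitoyltransferase, followed with circRNA6623 at 853, 1348 and 821 reads in P-Buffalo against 1087, 403 and 1300 in C-Buffalo and an SD of 0.20. Reads of these rings were lowest in C-Buffalo 2, and CPM levels were near equal with its TMM factor of 0.467. Its total of 931921 reads was not the lowest, so this steadiness depends on that factor. The SDs here were not computed under other scalings.

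KCTD9 held a steady and a variable ring side by side. Its circRNA2758, of 3 exons, had 536, 682 and 385 reads in P-Buffalo against 529, 159 and 788 in C-Buffalo (SD 0.24 on the log2 CPM scale). Its circRNA2757, also of 3 exons, had 3057, 549 and 430 reads in P-Buffalo against 418, 6637 and 590 in C-Buffalo (SD 2.19). P-Buffalo 1 and C-Buffalo 2 were high for the second ring and not for the first. The 5 most variable rings with at least 50 reads in every library were those of MARK3, ATXN2, KCTD9, B4GALT6 and TENT2. All of them had their most reads in C-Buffalo 2. TENT2, a cytoplasmic poly(A) polymerase gene, gave circRNA6329 with 350, 103 and 142 reads in P-Buffalo against 58, 1672 and 108 in C-Buffalo.

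Many host genes gave core circRNAs, most of them 1. Of 8611 host genes, 2428 (28.2%) had at least 1 core circRNA, 1400 of these (57.7%) had exactly 1, and 132 had 5 or more. In the median such host, 80.84% of all circRNA reads came from its core circRNAs. A core circRNA was found in 3.92% of hosts with 1 circRNA and in 91.9% of hosts with 20 or more. A host with more circRNAs has more chances to hold a core one, so this rise is partly built in. The most core circRNAs came from PICALM and COP1 with 12 each, followed with 10 each by VPS8, ATXN1, VWA8 and MINDY3.

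Rings of 1 host often shared a splice site. Of the 4153 exonic core circRNAs, 1581 (38.1%) shared a start or an end with another core circRNA, and up to 4 shared 1 start and up to 5 shared 1 end. In MINDY3, a deubiquitinase gene, 4 rings began at 53407358 on NC_037558.1 and held 7, 8, 9 and 10 exons, with 1450, 496, 2345 and 559 reads over the 6 animals. Of these, circRNA11994, of 9 exons, held 34.2% of the circRNA reads of MINDY3, and circRNA11995 was among the 3 core circRNAs with the most exons. The core reads of MINDY3 summed to 974, 1057 and 957 in P-Buffalo against 486, 1833 and 934 in C-Buffalo.

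In ATXN1, the ataxin-1 gene, 5 rings ended at 12123555 on NC_037546.1 and held 2 to 5 exons, with spans between 4046 and 263872 bp. In COP1, a ubiquitin ligase gene, the 12 rings were spread over the gene, and circRNA11174 (23681181 to 23699443 on NC_037549.1, 4 exons) was highest with 2110 reads. Another COP1 ring, circRNA14335, of 7 exons, was lowest with 57. COP1 core reads summed to 1224, 1362 and 1061 in P-Buffalo against 1144, 1328 and 1654 in C-Buffalo. In PICALM they were far less even, at 8423, 35659 and 13083 in P-Buffalo against 9164, 14733 and 5120 in C-Buffalo.

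**Figure D4:**
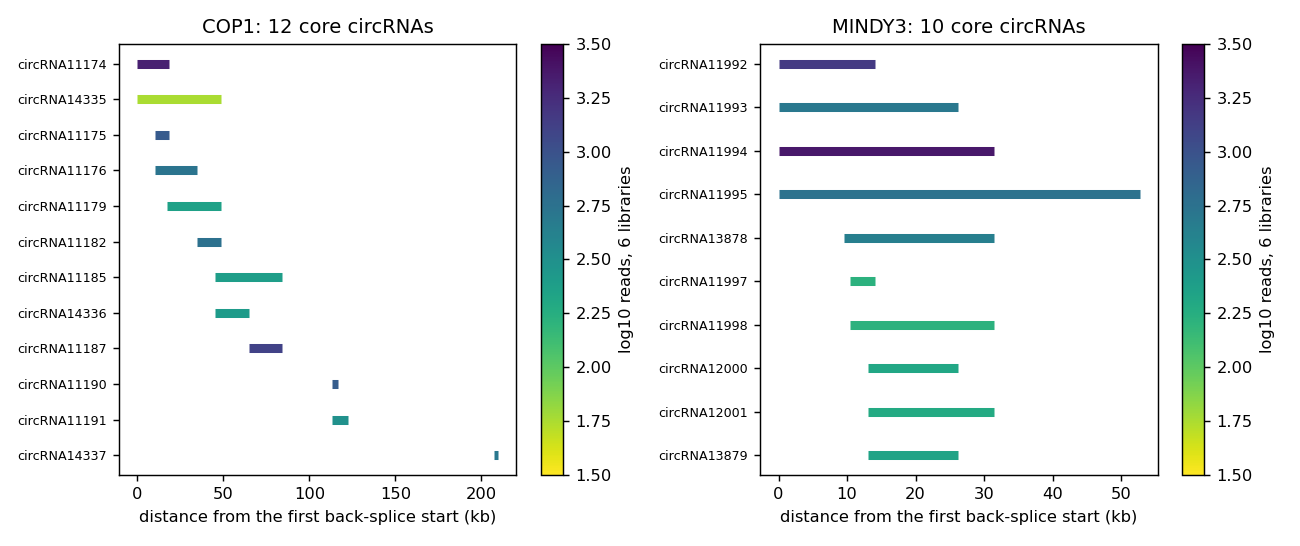
Core circRNAs of COP1 (left) and MINDY3 (right), each drawn as a bar from its start to its end, in kb from the first back-splice start, and coloured by log10 of its reads over the 6 libraries. In MINDY3 4 rings begin at the same start, and in COP1 the 12 rings are spread along the gene.

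No core circRNA passed the test between the groups. Of the 4562, 4364 were among the 8261 circRNAs tested across the whole table with edgeR's quasi-likelihood test, and 198 were too low. With the thresholds of 0.05 for the adjusted p and 1 for the size of the log2 fold change, 0 core circRNAs were called (0% of all tested), with a smallest adjusted p of 0.983 in the core. At an unadjusted p under 0.05, without the fold threshold, there were 166 (3.8%), against 3.9% of all tested. DESeq2 and limma on log2(SRPBM + 1) also called 0 in the core, and 159 and 11 in the whole table.

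At an unadjusted p under 0.05 with the fold threshold, 17 core circRNAs (0.39%) were higher in P-Buffalo, against 1.43% of all tested, and 148 (3.39%) were lower, against 2.46% of all tested. A circRNA with 0 reads in an animal can be among all tested but not in the core. Contrasts of core circRNAs with all tested, here and below, are therefore partly set by the rule and are a description. Of the 148, 141 had their highest CPM in C-Buffalo 2, as did 1451 of all 4364 core circRNAs tested. The split depended on the scaling and on single animals. With SRPBM totals, 18 were higher (0.41%, against 1.33% of all tested) and 18 lower (0.41%, against 0.65%). With the core reads as library size, 29 were higher (0.66%, against 1.49%) and 43 lower (0.99%, against 0.99%). With limma on log2(SRPBM + 1), 50 were higher (1.15%, against 3.21%) and 17 lower (0.39%, against 1.16%). Without C-Buffalo 2, 55 were higher (1.22%, against 2.71%) and 90 lower (2.00%, against 1.63%). The split was 8 (0.18%, against 2.14%) and 8 (0.18%, against 1.68%) without P-Buffalo 1. It was 4 (0.09%, against 2.37%) and 32 (0.72%, against 2.78%) without P-Buffalo 2. Leaving out P-Buffalo 3 gave 7 (0.16%, against 2.04%) and 10 (0.22%, against 1.68%). Leaving out C-Buffalo 1 gave 11 (0.25%, against 2.94%) and 289 (6.45%, against 4.50%). Leaving out C-Buffalo 3 gave 20 (0.45%, against 5.13%) and 277 (6.25%, against 4.01%). The share of lower calls in the core was below that of all tested when 1 P-Buffalo was left out, whichever it was, and above it when 1 C-Buffalo was, so its place relative to all tested turned with the setting.

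The median log2 fold change was −0.18 over the core and 0.05 over all tested circRNAs. These medians were 0.16 and 0.29 with core reads as library size and 0.12 and 0.24 with SRPBM totals, so the sign of the core's median turned with the scaling. With a filter at a mean count of 20 they were −0.06 and −0.15, so the core also lay above all tested in 1 setting. Groups did not overlap for 279 core circRNAs higher in P-Buffalo (6.39%, against 8.16% of all tested) and for 239 lower (5.48%, against 3.87%). Without C-Buffalo 2 these were 497 (11.4%, against 11.5%) and 570 (13.1%, against 11.9%).

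The core circRNAs with the smallest unadjusted p and non-overlapping groups are described here, and none passed the adjusted test. Among those higher in P-Buffalo, the ring of CCP110, which encodes a centriolar protein, was circRNA10021 (25401041 to 25401898 on NC_037568.1, 3 exons). It had 88, 260 and 111 reads in P-Buffalo against 10, 6 and 6 in C-Buffalo. Its level was 121 ± 56.6 CPM in P-Buffalo and 9.16 ± 4.75 CPM in C-Buffalo (SD, n = 3 each), a log2 fold change of 3.75 (SE 1.00).

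HOMER1, the gene of a scaffold protein best known from synapses, gave circRNA6332 (4 exons) with 98, 69 and 54 reads in P-Buffalo against 4, 2 and 20 in C-Buffalo, a log2 fold change of 2.94 (SE 0.94), or 3.82 without C-Buffalo 3. The sialyltransferase gene ST3GAL6 gave circRNA12930 with 335, 659 and 668 reads in P-Buffalo against 91, 25 and 196 in C-Buffalo, a log2 fold change of 2.29 (SE 0.76). This ring held 10.7% of the circRNA reads of ST3GAL6. The ciliary gene KIAA0586, the kinetochore gene CENPF and the nuclear import gene KPNA1 had log2 fold changes of 2.83, 2.92 and 2.20. CENPF circRNA11090 had 266, 73 and 98 reads in P-Buffalo against 31, 3 and 16 in C-Buffalo, and its log2 fold change was 2.19 without P-Buffalo 1 and 3.68 without C-Buffalo 1.

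Among those lower in P-Buffalo, 2 of the most abundant core circRNAs stood among the 6 with the smallest p. The UBE3A ring circRNA9123 had 3690, 10063 and 6103 reads in P-Buffalo against 16838, 11533 and 17806 in C-Buffalo, with a log2 fold change of −1.77 (SE 0.49). GLO1, which encodes the methylglyoxal-detoxifying glyoxalase I, gave circRNA7837 (39938274 to 39939318 on NC_037546.1, 2 exons). It had 4753, 6043 and 4134 reads in P-Buffalo against 18318, 6432 and 8284 in C-Buffalo. In CPM the P-Buffalo animals lay close together at 4065 ± 186, against 12634 ± 5933 in C-Buffalo (SD, n = 3 each), and the log2 fold change was −1.64 (SE 0.49), or −1.05 with limma on log2(SRPBM + 1).

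DGKH, which encodes a diacylglycerol kinase, gave circRNA6799 with 49, 82 and 103 reads in P-Buffalo against 427, 194 and 454 in C-Buffalo. Its level was 66.3 ± 31.5 CPM in P-Buffalo and 390 ± 61.2 CPM in C-Buffalo (SD, n = 3 each), and the log2 fold change was −2.56 (SE 0.76). The intronic ciRNA1183 of the nucleotidase gene NT5C2 had 12, 25 and 19 reads in P-Buffalo against 188, 113 and 65 in C-Buffalo, a log2 fold change of −3.38 (SE 1.03). KIF16B, an endosomal kinesin gene, and MRPS27, a mitochondrial ribosome gene, gave rings with log2 fold changes of −3.79 and −1.95. KIF16B circRNA12131 had 10, 5 and 3 reads in P-Buffalo against 24, 73 and 27 in C-Buffalo, and its log2 fold change was −2.10 without C-Buffalo 2 and −4.42 without P-Buffalo 1. With SRPBM totals the log2 fold changes of the NT5C2, KIF16B and MRPS27 rings were −2.79, −2.72 and −1.33.

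**Figure D5:**
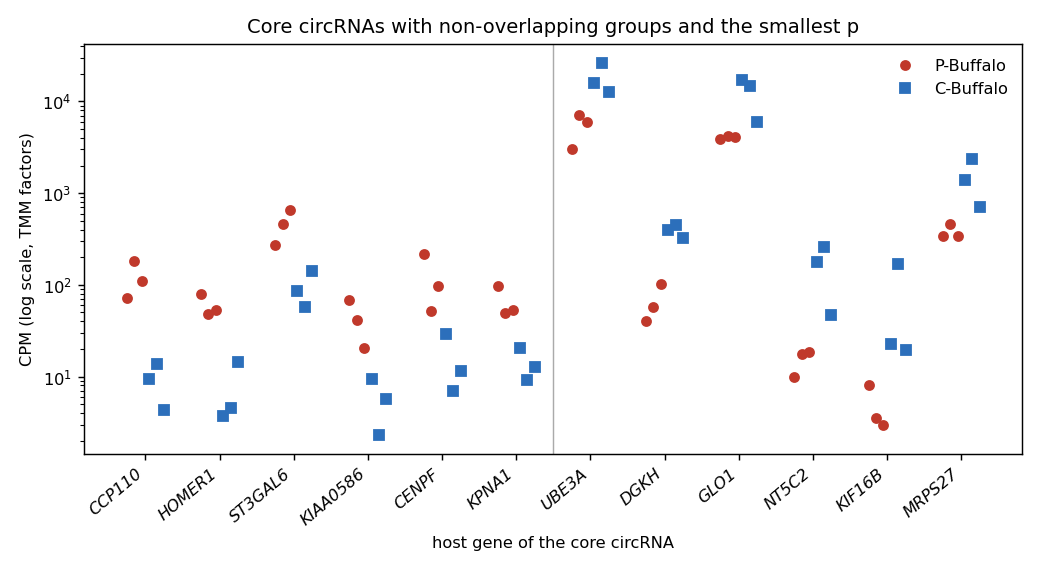
CPM (log axis, TMM factors) of the 12 core circRNAs with the smallest unadjusted p and non-overlapping groups, by host gene, in 3 P-Buffalo (red circles) and 3 C-Buffalo (blue squares). The 6 on the left are higher in P-Buffalo, such as CCP110 at 121 ± 56.6 against 9.16 ± 4.75 CPM, and the 6 on the right are lower, and none passed the adjusted test.

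Blood holds many cell types, and in bulk blood fewer cells of a type and less RNA per cell cannot be told apart. Host genes that mark red cells, platelets, T cells, B cells and neutrophils all gave core circRNAs. Of the 23 erythroid genes that hosted any circRNA, 8 gave 28 core circRNAs, and of 18 platelet genes 9 gave 22. Of 11 T cell genes 3 gave 8, of 12 B cell genes 5 gave 6, and of 13 neutrophil genes 4 gave 9. The 4 monocyte, the 4 NK and cytotoxic cell and the 1 eosinophil gene with a circRNA gave 0. Core circRNAs were 8.54% of the circRNAs of erythroid genes, 13.3% of those of platelet genes, 15.1% for T cells, 8.11% for B cells and 8.57% for neutrophils, against 7.96% of all circRNAs.

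Core circRNAs of platelet genes held a smaller share of the core reads in every P-Buffalo than in any C-Buffalo. The shares were 0.329%, 0.285% and 0.234% in P-Buffalo against 0.409%, 0.517% and 0.391% in C-Buffalo. Without the platelet ring of most reads, circRNA11323 of the dynamin gene DNM3, the shares were 0.167%, 0.182% and 0.142% against 0.274%, 0.360% and 0.274%. Of 20 tested, 0 were higher and 3 lower at an unadjusted p under 0.05 with the fold threshold, where 1.43% and 2.46% of all tested were, and 8 did not overlap and were lower, as were 3.87% of all tested. The number lower was 1 without C-Buffalo 2, with core reads as library size and with SRPBM totals. The median log2 fold change was −1.13, against 0.05 over all tested. This median was −0.80 without C-Buffalo 2 (0.03 over all tested), −0.79 with core reads as library size (0.29) and −0.67 with SRPBM totals (0.24).

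Of the platelet rings, circRNA3065 of CLEC1B, the gene of the podoplanin receptor CLEC-2, had 201, 334 and 129 reads in P-Buffalo against 360, 286 and 459 in C-Buffalo, with a log2 fold change of −1.33 (SE 0.70), or −0.73 with SRPBM totals. Its second ring, circRNA3064, had 57, 122 and 18 reads in P-Buffalo against 161, 191 and 171 in C-Buffalo. The ring circRNA7664 of F13A1, which encodes the A subunit of coagulation factor XIII, had 46, 124 and 51 reads against 167, 127 and 165. In contrast, circRNA7666 of F13A1 had 86, 58 and 58 reads in P-Buffalo against 45, 1 and 63 in C-Buffalo, which overlapped. By raw reads, F13A1 thus held 1 ring that was lower in every P-Buffalo and 1 that was not. The VCL ring circRNA3745 was lower at an unadjusted p through 1 animal, with 26, 35 and 2 reads in P-Buffalo against 50, 615 and 5 in C-Buffalo.

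Core circRNAs of erythroid genes held a larger share in every P-Buffalo than in any C-Buffalo. The shares were 0.720%, 0.891% and 0.772% in P-Buffalo against 0.529%, 0.476% and 0.465% in C-Buffalo. In summed CPM the groups overlapped, at 4660, 6237 and 4783 in P-Buffalo against 3859, 7786 and 2909 in C-Buffalo. Without circRNA8429 of the membrane skeleton gene EPB41, their ring of most reads, the shares were 0.529%, 0.769% and 0.681% against 0.463%, 0.405% and 0.396%. Of 28 tested, 2 were higher and 0 lower at an unadjusted p under 0.05 with the fold threshold, where 1.43% and 2.46% of all tested were. Groups did not overlap for 3 that were higher, against 8.16% of all tested, and for 0 that were lower, against 3.87%. The median log2 fold change was 0.32, against 0.05 over all tested. Without C-Buffalo 2 the median was 0.46, against 0.03, and 1 was higher. With core reads as library size it was 0.72, against 0.29, and 3 were higher.

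Both erythroid rings at an unadjusted p were nearly unread in C-Buffalo 2. The ring circRNA9329 of SOX6, a transcription factor of red cell maturation, had 83, 614 and 478 reads in P-Buffalo against 85, 2 and 39 in C-Buffalo. The ring circRNA3791 of MARCH8, a membrane-bound ubiquitin ligase gene, had 102, 883 and 206 reads in P-Buffalo against 95, 2 and 50 in C-Buffalo. P-Buffalo 1 lay near C-Buffalo 1 for both. Other erythroid rings did not share this pattern. The EPB41 ring circRNA8428 had 503, 752 and 240 reads in P-Buffalo against 367, 724 and 627 in C-Buffalo. Its groups overlapped, and its mean CPM was lower in P-Buffalo, with the highest CPM in C-Buffalo 2. The MARCH8 ciRNA ciRNA550 had 642, 829 and 921 reads in P-Buffalo against 423, 314 and 804 in C-Buffalo, which overlapped. The part of red cell and platelet numbers in these shares was not tested.

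Of all 22 host lists and KEGG pathways with core circRNAs, the shares of core reads did not overlap in 5, with 3 higher and 2 lower in P-Buffalo. Lists share members, such as the MAPK14 ciRNA, and this count was not tested. In summed CPM the erythroid, spliceosome and platelet activation lists overlapped between the groups. The platelet marker and ubiquitin-mediated proteolysis lists did not. Neither did the cAMP signaling, B cell receptor, actin cytoskeleton and Fc gamma phagocytosis lists, which were lower in every P-Buffalo in summed CPM though their shares overlapped. For cAMP signaling the sums were 12343, 15277 and 12469 CPM in P-Buffalo against 15439, 37984 and 16930 CPM in C-Buffalo. The share of ubiquitin-mediated proteolysis was 3.14%, 3.33% and 3.63% in P-Buffalo against 4.60%, 4.68% and 4.52% in C-Buffalo. UBE3A alone held 0.466%, 1.01% and 0.968% of the core reads in P-Buffalo against 2.17%, 1.62% and 2.04% in C-Buffalo, and without its ring the groups overlapped. The KEGG platelet activation share, at 2.56%, 2.81% and 2.69% in P-Buffalo against 2.41%, 1.83% and 2.48% in C-Buffalo, ran opposite to that of the platelet marker genes. It overlapped once the MAPK14 ciRNA was left out. The spliceosome share was 0.458%, 0.452% and 0.467% in P-Buffalo against 0.336%, 0.440% and 0.433% in C-Buffalo, and it did not overlap without its highest ring, of HNRNPC, either.

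Genes of proteins that act on back-splicing also gave core circRNAs. Of 20 such genes with a circRNA, 8 gave 19, which was 7.92% of their circRNAs, against 7.96% of all. QKI, whose protein promotes ring formation in human cells, gave circRNA9 with 286, 300 and 189 reads in P-Buffalo against 321, 760 and 504 in C-Buffalo. The raw reads did not overlap and the log2 fold change was −1.93 (SE 0.82). It was −0.68 without C-Buffalo 2, where the ring stood at 1747 CPM against 301 and 361 CPM in the other C-Buffalo, and −1.10 with core reads as library size. MBNL1, whose fly relative binds its own circRNA, gave circRNA4639 with 401, 401 and 210 reads in P-Buffalo against 179, 403 and 420 in C-Buffalo, which overlapped. Of the 18 tested, 0 were higher and 1 was lower at an unadjusted p with the fold threshold (1.43% and 2.46% of all tested), and their median log2 fold change was −0.38 with TMM factors, 0.14 without C-Buffalo 2 and 0.08 with core reads as library size.

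Of 28 hosts of circRNAs well described in human or mouse, 19 gave core circRNAs, HIPK3, SMARCA5 and CAMSAP1 among them. These were 45 rings, or 11.6% of the circRNAs of these hosts against 7.96% of all. Interferon-stimulated genes, which respond to the interferon tau of the ruminant conceptus, gave core circRNAs in 7 of 24 hosts. The ring circRNA2423 of XAF1 had 33, 148 and 69 reads in P-Buffalo against 155, 141 and 199 in C-Buffalo, with a log2 fold change of −1.62 (SE 0.89), or −0.98 with SRPBM totals. The ring circRNA9573 of OAS2 had 105, 103 and 29 reads in P-Buffalo against 17, 3 and 39 in C-Buffalo. Of 9 tested, 0 were higher and 1 was lower at an unadjusted p under 0.05 with the fold threshold, against 1.43% and 2.46% of all tested, and the number lower was 1 without C-Buffalo 2 and 0 with core reads as library size or SRPBM totals.

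In T cells, BCL11B, a transcription factor gene of T cell commitment, gave the highest ring, circRNA8860 of 1 exon. It had 1665, 1138 and 1181 reads in P-Buffalo against 1185, 1931 and 1904 in C-Buffalo, which overlapped, with a log2 fold change of −1.06 (SE 0.66), or −0.19 without C-Buffalo 2 and −0.34 with SRPBM totals. Of 8 T cell rings tested, 0 were higher and 0 lower by the same thresholds (1.43% and 2.46% of all tested), and the same held for 5 B cell rings.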

How the data were processed

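In the table that the authors deposited, each circRNA has a raw count for every library. It also has a deposited signal, SRPBM (spliced reads over mapped reads), equal to this count over a constant of the library. The paper names CIRCExplorer and CIRI with assembly ASM312139v1, while the submitters' processing notes list GRCh38.p10 with HISAT2, StringTie, fastp, HOMER, edgeR and ChIPseeker. Which pipeline gave the counts was not given in the sources used here. Rings' coordinates, types, exon numbers, flanking introns, hosts and KEGG terms are as deposited. Where a circRNA had 0 reads, its level may reach 2.31 to 3.68 CPM by library before TMM factors, for counting error only, since reads carry no molecular identifiers.

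Groups were tested with edgeR 4.0.16 in R 4.3.3 (quasi-likelihood test, TMM factors, default filter, Benjamini-Hochberg adjustment over the whole table, adjusted p under 0.05 and absolute log2 fold change of at least 1), after a test on simulated data. The paper names a t-test with these thresholds. Structure was compared with exact permutation tests that list every arrangement of the animals. These and the other tables were computed with Python 3.11.15, scipy 1.17.1, pandas 2.3.3 and numpy 2.4.6, and drawn with matplotlib 3.10.9. Alternatives were other scalings and filters, DESeq2 1.42.0, limma 3.58.1, the replicate number as a block, other detection limits and leaving out each library. The spread, overlap and list values without C-Buffalo 2, the list medians under other scalings and the list shares without their highest ring were added after seeing the data.

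Members and lists were chosen with earlier results of these data known. Named were the 10 highest, 6 in each direction by p among those with non-overlapping groups, the 5 steadiest and 5 most variable with at least 50 reads in every library, the 8 hosts with most members, up to 3 per list, 5 intronic, 5 intergenic, the extremes of exon number and span, 5 on either side of the limit and up to 5 pairs 1 bp apart. The rings circRNA3064, circRNA7664, circRNA7666, circRNA9329, circRNA3791 and circRNA9573 were chosen after their values were seen.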

Additional observations from a re-analysis of the deposited data

How the results depend on the processing

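The core held 4562 circRNAs at 1 read per library, 2261 at 10 reads, 4492 after thinning all libraries to the lowest total, and 4700 to 5843 when 1 library was left out. The count of core circRNAs at an adjusted p was 5 without a filter and 0 otherwise. Those 5 (rings of FBXO38, VCL, FCHO2, LOC102394150 and an intergenic one) were far highest in C-Buffalo 2. Over the whole table it was 600 without a filter, 159 with DESeq2, 11 with limma on log2(SRPBM + 1) and 0 otherwise. At an unadjusted p, 17 core circRNAs were higher and 148 lower. The counts were 3 (0.07%, against 1.05% of all tested) and 224 (4.91%, against 2.65%) without a filter. They were 16 (0.42%, against 0.99%) and 59 (1.55%, against 2.63%) at a mean count of 20. DESeq2 gave 1 (0.02%, against 0.65%) and 13 (0.28%, against 0.93%). Limma on log2(SRPBM + 0.1) gave 37 (0.85%, against 2.68%) and 16 (0.37%, against 0.98%). The counts given above with their shares were 18 and 18 with SRPBM totals and 29 and 43 with core reads as library size. They were 50 and 17 with limma on log2(SRPBM + 1). Leaving out 1 library gave 4 to 55 higher and 8 to 289 lower. The cause of these shifts was not tested. With the replicate block the counts were 4 (0.09%, against 0.73% of all tested) and 18 (0.41%, against 1.07%). Libraries of the same number did not deviate together, with correlations of −0.11, −0.05 and −0.03, against −0.08 to 0.14 for libraries of unlike number. So few values cannot exclude a pairing, and none is given in the sources used here.

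The 23 circRNAs checked singly, which include all given with a log2 fold change, kept their direction under all alternatives run. Leaving out 1 animal, where the exact test cannot pass, the core exceeded the rest in exonic share by 9.27 to 10.2 percentage points, in the shorter flank by 1685.8 to 1833.4 bp and in the longer by 2166.4 to 2982.8 bp, and the difference in span was −2420.2 to −2128.6 bp. With the core at 5 or more reads, or the rest as circRNAs read in 4 or 5 libraries, these 4 differences kept their sign in all animals. That sign is partly built in, as said above, so the exact test adds no independent support there.

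Of the 2979 circRNAs missing from 1 library, 1281 were missing from C-Buffalo 2. No batch is given in the sources used here.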
